A study of Caenorhabditis elegans with 12 samples.

Results

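The genes described here are 6 that store or import iron or carry it in an enzyme: the ferritins *ftn-1* and *ftn-2*, the transporters *smf-1*, *smf-2* and *smf-3*, and the cytosolic aconitase *aco-1*. They were taken by name from the 46739 rows of a table of RPKM, the reads of a feature scaled to its length and to the mapped reads of the library, and all 6 names were found. The set was selected on the *ftn-1* level in the *cat-2* RNAi-labelled libraries relative to EV, so the differences of *ftn-1* between those libraries and the others are given as a description, and the p-values printed for them are part of that choice and not tests of it. The table holds 12 libraries of whole day 1 adult *Caenorhabditis elegans*, 4 each labelled *cat-1* RNAi, *cat-2* RNAi and empty vector (EV) RNAi. Every worm was of strain PMD216 and carried rde-1(ne219), rrf-3(b26), dat-1p::GFP and dat-1p::sid1-SL2-rde-1. The study's strain list adds fem-1(hc17), eri-1(mg366), lin-15B(n744) and unc-119(+), also shared by all groups, and each library came from a pool of worms fed bacteria with the RNAi plasmid. The dat-1 promoter restores the RNAi factors in dopaminergic neurons, so the knockdown was meant for those cells while the RNA came from every tissue. The product of *cat-1* loads monoamines into synaptic vesicles, and that of *cat-2* is the tyrosine hydroxylase that starts dopamine synthesis, an enzyme that needs iron. The comparisons ask how whole-worm mRNA differs after RNAi of either gene in these neurons.

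Ferritin is a protein shell that keeps iron in a safe, stored form. In *C. elegans* *ftn-1* is expressed mainly in the intestine and is known for its strong transcriptional response to iron, with HIF-1 acting as a repressor when iron is scarce and the GATA factor ELT-2 as an intestinal activator, while *ftn-2* is expressed more broadly and more evenly. The SMF proteins belong to the NRAMP family and carry iron and manganese into cells. SMF-3 is the main intestinal importer and is known to be lowered when metal is plentiful. ACO-1 is the worm relative of the mammalian iron regulatory protein, but the worm ferritin mRNAs lack the iron-responsive elements through which that protein acts in mammals.

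The libraries held 18765779 to 21493743 mapped reads, recovered from the steps of the RPKM values. *cat-1* had 107 reads over the 4 *cat-1* RNAi-labelled libraries, against 15 over the EV libraries. *cat-2* had 156 reads over the 4 *cat-2* RNAi-labelled libraries, against 19 over the EV libraries. Each target was thus higher under its own label, which does not check the knockdown; the reason was not tested, and the groups are named by their labels throughout. Replicate 2 of the *cat-2* RNAi-labelled libraries stood apart from the rest, with a limma quality weight of 0.331 where the other 11 libraries had 0.629 to 1.535.

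By the WBcel235 annotation (the same assembly as ce11), *ftn-1* (WBGene00001500) lies on chromosome V from 7546468 to 7547579 on the minus strand, with 3 exons. *ftn-2* (WBGene00001501) lies on chromosome I from 3680180 to 3680927 on the minus strand, also with 3 exons. *smf-2* (WBGene00004877) spans 6716195 to 6718695 and *smf-1* (WBGene00004876) spans 6719669 to 6723066 on the minus strand of chromosome X, with 12 and 11 exons, so that 973 bases separate the pair. *smf-3* (WBGene00004878) lies apart from them on chromosome IV, from 2618869 to 2625503 on the plus strand, with 12 exons. *aco-1* (WBGene00000040) spans 11339874 to 11343327 on the plus strand of chromosome X, with 8 exons.

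The 6 mRNAs kept 1 order of level per length in all 12 libraries, namely *ftn-2*, *aco-1*, *ftn-1*, *smf-1*, *smf-3* and *smf-2*. The ranges of neighbours in that order did not overlap, although the lowest *ftn-1* value, 11.4 RPKM in EV replicate 2, came close to the highest *smf-1* value, 11.3 RPKM in replicate 4 of the *cat-2* RNAi-labelled libraries. Over all libraries *ftn-2* averaged 169.9 RPKM and exceeded 94.9% of the 13161 genes tested, while *aco-1* averaged 48.4 RPKM and exceeded 74.2% of them. *ftn-1* averaged 20.5 RPKM, above 57.1% of tested genes, and *smf-1* averaged 9.72 RPKM, above 46.6%. *smf-3* was near the lower limit of the test at 0.984 RPKM, above 14.1% of tested genes. The test required at least 0.5 RPKM in at least 4 libraries, which 5 of the 6 genes reached in all 12 libraries and *smf-2* in 0.

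*ftn-1*, the inducible ferritin, had 26.3, 26.7, 30.6 and 29.2 RPKM in the *cat-2* RNAi-labelled libraries, against 18.3, 11.4, 16.5 and 16.6 RPKM in the EV libraries. All 4 *cat-2* RNAi-labelled libraries were above every EV library, and the lowest EV value was that of replicate 2. The means were 28.2 ± 2.04 RPKM in the *cat-2* RNAi-labelled libraries and 15.7 ± 2.97 RPKM in the EV libraries (SD, n = 4 each), a ratio of 1.799. On the scale of log2(RPKM + 0.5) the difference was 0.85 with a standard error of 0.126. These are the values that chose the gene. Their limma adjusted p over all tested genes was 0.0367, and across 23 processing alternatives it was 0.0142 to 0.201 and under 0.05 in 8, so that the side of the threshold depends on the processing. Higher levels in all 4 *cat-2* RNAi-labelled libraries than in every EV library were found for 3.03% of tested genes, and 0.0304% passed an adjusted p of 0.05 in this comparison in either direction. Without EV replicate 2 the log2 difference of *ftn-1* was 0.70, and without replicate 2 of the *cat-2* RNAi-labelled libraries it was 0.87. In whole-worm RNA, more cells with the transcript and more transcript per cell cannot be told apart.

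**Figure D1:**
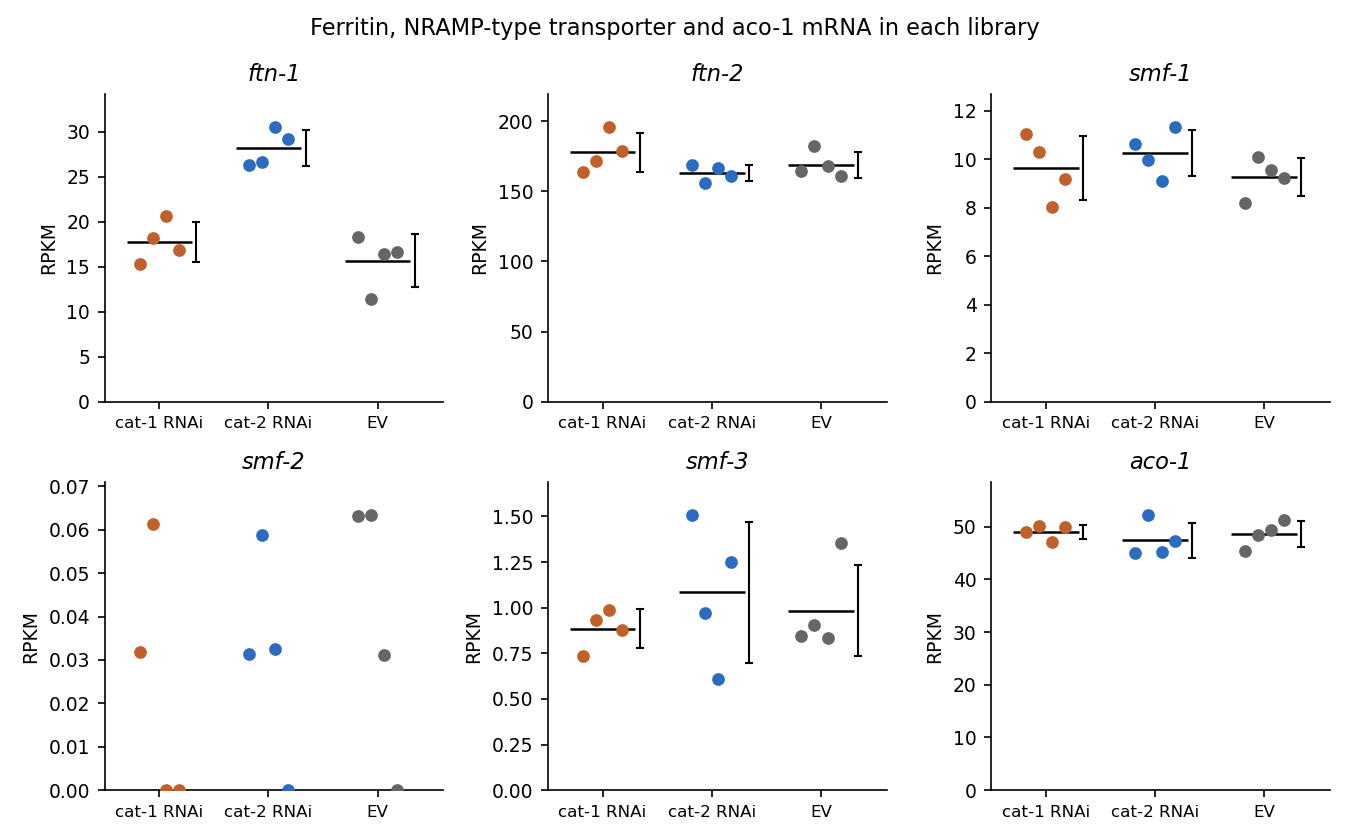
RPKM (vertical axes, each from 0) of the 6 genes in each *cat-1* RNAi-labelled, *cat-2* RNAi-labelled and EV library; points are libraries, and for the 5 tested genes lines are means and bars 1 SD (n = 4). *ftn-1* lies between 26.3 and 30.6 RPKM in the *cat-2* RNAi-labelled libraries and at most at 20.6 RPKM in the other 8 libraries, while the groups overlap for the other genes.

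In the *cat-1* RNAi-labelled libraries *ftn-1* had 15.3, 18.2, 20.6 and 16.8 RPKM. These values overlapped with those of the EV libraries, and 1 of the 4 lay above every EV library. The mean of 17.7 ± 2.24 RPKM in the *cat-1* RNAi-labelled libraries (SD, n = 4) differed from the EV mean by 0.18 on the log2 scale (standard error 0.126, limma adjusted p = 0.883), with a 95% interval from -0.09 to 0.46 that reaches a fold of 1.37. Every *cat-1* RNAi-labelled library was below every *cat-2* RNAi-labelled library, with a log2 difference of -0.66 (standard error 0.126, limma adjusted p = 0.221) for the 2 groups. Such a separation, lower in the *cat-1* RNAi-labelled libraries, was found for 1.95% of tested genes. The comparison of each label with EV uses the same 4 EV libraries, so both share the low EV replicate 2. Without it the log2 difference of *ftn-1* between the *cat-1* RNAi-labelled libraries and EV was 0.04.

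*ftn-1* also varied more between replicates than most genes of its level. Its SD within groups was 0.204 on the log2 scale, where 1440 genes within 0.5 log2 units of its mean had a median of 0.117, and 87.6% of them varied less. The coefficient of variation was 7.24% in the *cat-2* RNAi-labelled libraries, 12.6% in the *cat-1* RNAi-labelled libraries and 18.9% in EV. EV replicate 2, at 11.4 RPKM, was the lowest library. Without that library the standard error of the log2 difference between the *cat-2* RNAi-labelled libraries and EV was 0.0945, against 0.126 with it. Part of this spread thus rests on 1 library, and the SD without it was not computed.

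*ftn-2*, the ferritin with the larger mRNA pool, had 164.0, 171.7, 196.1 and 178.6 RPKM in the *cat-1* RNAi-labelled libraries, against 164.7, 182.3, 167.7 and 161.0 RPKM in EV. The groups overlapped, with only replicate 3 of the *cat-1* RNAi-labelled libraries above every EV library. The log2 difference was 0.07 (standard error 0.0553, limma adjusted p = 0.893), with a 95% interval of 0.967 to 1.14 as a fold. The *cat-2* RNAi-labelled libraries had 169.0, 156.2, 166.5 and 160.9 RPKM, which also overlapped with EV at a log2 difference of -0.05 (standard error 0.0553). The *ftn-2* level thus lay on the other side of EV from *ftn-1* in these libraries, by less than the spread between replicates. Between the RNAi labels *ftn-2* differed by 0.12 on the log2 scale, and 3 of the 4 *cat-1* RNAi-labelled libraries were above every *cat-2* RNAi-labelled library.

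*ftn-2* made up most of the ferritin mRNA, and the sum of both genes overlapped between the groups. It was 195.3 ± 15.7 RPKM in the *cat-1* RNAi-labelled libraries, 191.4 ± 6.37 RPKM in the *cat-2* RNAi-labelled libraries and 184.6 ± 6.70 RPKM in EV (SD, n = 4 each). The share of *ftn-1* in this sum was 13.5%, 14.6%, 15.5% and 15.4% in the *cat-2* RNAi-labelled libraries, against 9.98%, 5.88%, 8.94% and 9.34% in EV. In the *cat-1* RNAi-labelled libraries it was 8.54%, 9.56%, 9.51% and 8.62%, inside the EV range. *ftn-2* exceeded *ftn-1* 5.81 ± 0.445 times in the *cat-2* RNAi-labelled libraries and 11.2 ± 3.22 times in EV (SD, n = 4 each). The share contains the values that chose *ftn-1*, so it is a description as well.

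**Figure D2:**
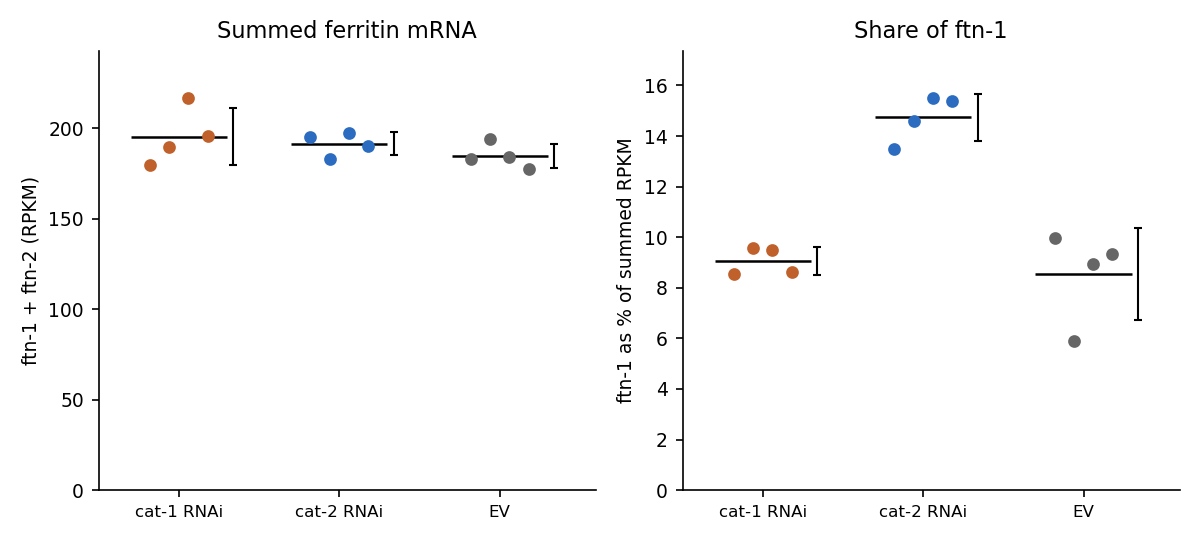
Left, summed RPKM of *ftn-1* and *ftn-2*; right, *ftn-1* as a percent of that sum, for each *cat-1* RNAi-labelled, *cat-2* RNAi-labelled and EV library (points), with means (lines) and 1 SD (bars, n = 4). The sums overlap between 177.6 and 216.7 RPKM, while the *ftn-1* share is 13.5% to 15.5% in the *cat-2* RNAi-labelled libraries and at most 9.98% in the others.

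Of the 5 tested genes, 0 passed an adjusted p of 0.05 between the *cat-1* RNAi-labelled libraries and EV, where 0% of all tested genes did. At an unadjusted p under 0.05 the same limma test took 0 of the 5, where it took 782 genes, or 5.94%, of all tested (3.45% higher and 2.49% lower). voom on the recovered reads also took 0 of the 5 at an adjusted p of 0.05. Between the RNAi labels, with *cat-1* over *cat-2*, the log2 difference was -0.09 for *smf-1*, -0.16 for *smf-3* and 0.05 for *aco-1*.

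Among the transporters, *smf-1* had 11.04, 10.3, 8.03 and 9.19 RPKM in the *cat-1* RNAi-labelled libraries, against 8.20, 10.1, 9.54 and 9.24 RPKM in EV. The groups overlapped and the *cat-1* RNAi-labelled libraries reached both above and below the EV range. The log2 difference was 0.05 (standard error 0.106, limma adjusted p = 0.978), with a 95% interval of 0.882 to 1.21 as a fold. The *cat-2* RNAi-labelled libraries had 10.6, 9.96, 9.11 and 11.3 RPKM, 2 of them above every EV library and the others within the EV range. Their log2 difference from EV was 0.14 (standard error 0.106). The SD of *smf-1* within groups was 0.15 on the log2 scale, close to the median of 0.16 for genes of its level.

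*smf-3*, the importer that metal is known to lower, was measured with 21 to 54 reads a library. It had 0.738, 0.930, 0.987 and 0.880 RPKM in the *cat-1* RNAi-labelled libraries, against 0.844, 0.905, 0.836 and 1.35 RPKM in EV. The first 3 EV libraries lay close together and replicate 4 stood above them. The log2 difference was -0.09 (standard error 0.194, limma adjusted p = 0.976), with a 95% interval of 0.704 to 1.25 as a fold, and without EV replicate 4 it was 0.02.

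In the *cat-2* RNAi-labelled libraries *smf-3* had 1.51, 0.969, 0.609 and 1.25 RPKM, so that the highest and the lowest of all 12 values were in this group. The log2 difference from EV was 0.07 (standard error 0.194). It was -0.05 without replicate 1 and 0.23 without replicate 3 of these libraries, so its direction rests on single libraries. The lowest *smf-3* value and the highest *ftn-1* value were both in replicate 3 of the *cat-2* RNAi-labelled libraries. Over all 12 libraries the pair nevertheless had a Pearson r of 0.179, and over deviations from the group means one of -0.00366. These are descriptions over 12 libraries that share their groups and sequencing depth, and *smf-3* has few reads.

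*smf-2* was at the floor of the data, with 1, 2, 0 and 0 reads in the *cat-1* RNAi-labelled libraries, 1, 2, 1 and 0 reads in the *cat-2* RNAi-labelled libraries and 2, 2, 1 and 0 reads in EV. That is 12 reads in all, no more than 0.0634 RPKM in any library, and no comparison was made. An exon of *smf-2* overlaps *nas-11*, which lies on the opposite strand and averaged 56.5 RPKM in the *cat-1* RNAi-labelled libraries, 69.4 RPKM in the *cat-2* RNAi-labelled libraries and 58.7 RPKM in EV. Whether strand was used in counting is not given in the sources used here, so the few *smf-2* reads cannot be assigned to it with certainty. The other 5 genes overlap no annotated gene.

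The SD of *aco-1* within groups was 0.0746 on the log2 scale, close to the median of 0.0802 for genes of its level. *aco-1* had 48.9, 50.2, 47.2 and 50.0 RPKM in the *cat-1* RNAi-labelled libraries, 45.0, 52.2, 45.2 and 47.3 RPKM in the *cat-2* RNAi-labelled libraries and 45.4, 48.5, 49.3 and 51.4 RPKM in EV. All groups overlapped. Between the *cat-1* RNAi-labelled libraries and EV the log2 difference was 0.01 (standard error 0.0538, limma adjusted p = 0.995), with a 95% interval of 0.932 to 1.09 as a fold. For the *cat-2* RNAi-labelled libraries the log2 difference from EV was -0.04 (standard error 0.0538). The highest of these values belonged to replicate 2, the library that stood apart.

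**Figure D3:**
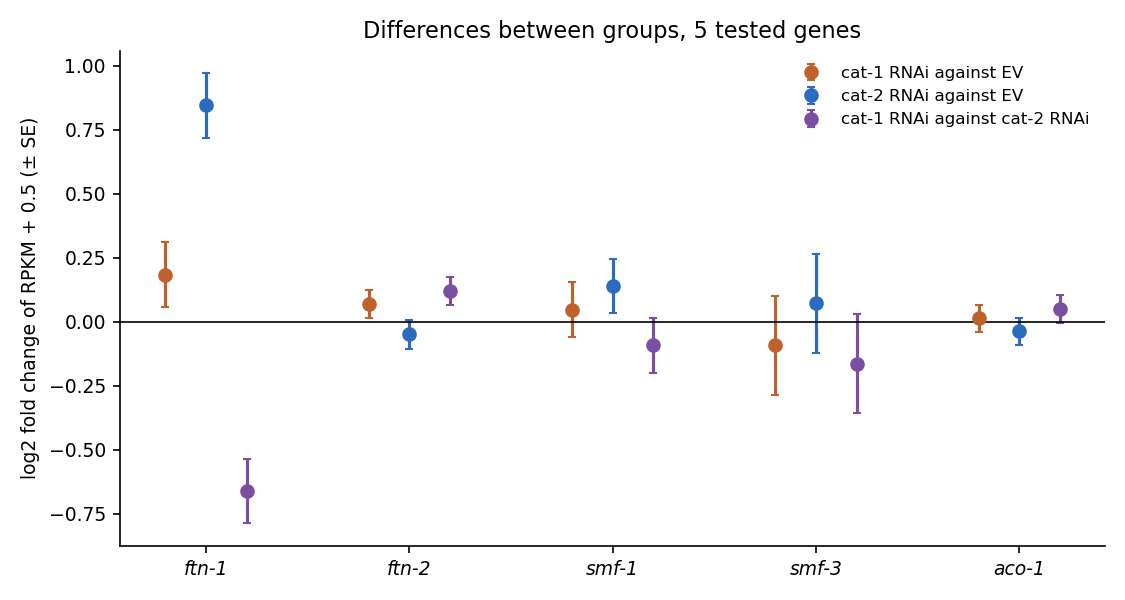
Log2 fold change of RPKM + 0.5 (vertical axis) with 1 standard error (bars) from limma for the 5 tested genes, with *cat-1* RNAi against EV, *cat-2* RNAi against EV and *cat-1* RNAi against *cat-2* RNAi drawn from left to right for each gene. *ftn-1* is at 0.85 and -0.66 in the comparisons that involve the *cat-2* RNAi-labelled libraries, and every other value lies between -0.16 and 0.18.

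The nearest tested genes on the chromosomes, 2 for each of the 6, had log2 differences of -0.11 to 0.25 between the *cat-2* RNAi-labelled libraries and EV. *smf-1* is among them as a neighbour of *smf-2*. In this comparison 0 of them passed a limma adjusted p of 0.05. Of all tested genes 0.0304% did so, so a count of 0 is no different from the background. *nhx-3*, a sodium-proton exchanger gene 944 bases from *ftn-1*, averaged 3.05 RPKM in the *cat-2* RNAi-labelled libraries and 2.67 RPKM in EV, a log2 difference of 0.15 (limma adjusted p = 0.755). *F19F10.3*, 4541 bases away, averaged 5.50 RPKM in the *cat-2* RNAi-labelled libraries and 4.51 RPKM in EV, a log2 difference of 0.25 (limma adjusted p = 0.703). The gene nearest to *ftn-2*, the small GTPase gene *rab-8*, had a log2 difference of -0.0012 in the same comparison, and *K11G12.5*, 676 bases from *smf-1*, one of 0.06. *ngn-1*, the neurogenin gene 558 bases from *smf-3*, was at 0.38 for the *cat-1* RNAi-labelled libraries against EV (limma adjusted p = 0.819). *oct-2*, 3127 bases from *aco-1*, was at -0.09 for the *cat-2* RNAi-labelled libraries against EV.

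Across the 12 libraries the 5 tested genes did not move as a group. The Pearson r of their log2 levels ran from -0.44, for *ftn-2* and *smf-1*, to 0.27, for *smf-1* and *smf-3*. The ferritins had an r of -0.36 with each other, and one of -0.06 over deviations from the group means. *ftn-1* and *smf-1* had an r of 0.10 over all libraries and -0.66 within groups, where a low *ftn-1* library tended to be a high *smf-1* library. This was the most extreme within-group r among these genes, so it is a description. Replicate 4 of the *cat-2* RNAi-labelled libraries went the other way, with 29.2 RPKM of *ftn-1* and the highest *smf-1* level, 11.3 RPKM.

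The genes whose levels were most like those of *ftn-1* over the 12 libraries were *R13A1.10* (r = 0.937), *F08G5.6* (r = 0.893), *C09D4.4* (r = 0.884), *parp-1* (r = 0.874) and *C32H11.4* (r = 0.871). They were picked by this r, which contains the values that chose *ftn-1*, so their group means are a description. *F08G5.6* averaged 49.4 RPKM in the *cat-2* RNAi-labelled libraries and 34.3 RPKM in EV. Its r with *ftn-1* within groups, 0.845, comes from the same libraries. *parp-1*, a poly(ADP-ribose) polymerase gene, averaged 87.3 RPKM in the *cat-2* RNAi-labelled libraries and 80.2 RPKM in EV, a much narrower range than that of *ftn-1*.

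At the opposite end of the order stood *Y52E8A.3* (r = -0.917), *F22B8.4* (r = -0.901), the acid sphingomyelinase gene *asm-1* (r = -0.897), the palmitoyl-protein thioesterase gene *ppt-1* (r = -0.883) and *Y32F6A.5* (r = -0.878). *Y52E8A.3* averaged 0.940 RPKM in the *cat-2* RNAi-labelled libraries and 2.32 RPKM in EV. Its highest level, 3.38 RPKM, was in EV replicate 2, the library with the lowest *ftn-1*. These 10 genes are the extremes of 13161, picked by an r that contains the values that chose *ftn-1*. Over deviations from the group means in the same libraries the r of *R13A1.10* was 0.754 and that of *Y52E8A.3* was -0.713.

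**Figure D4:**
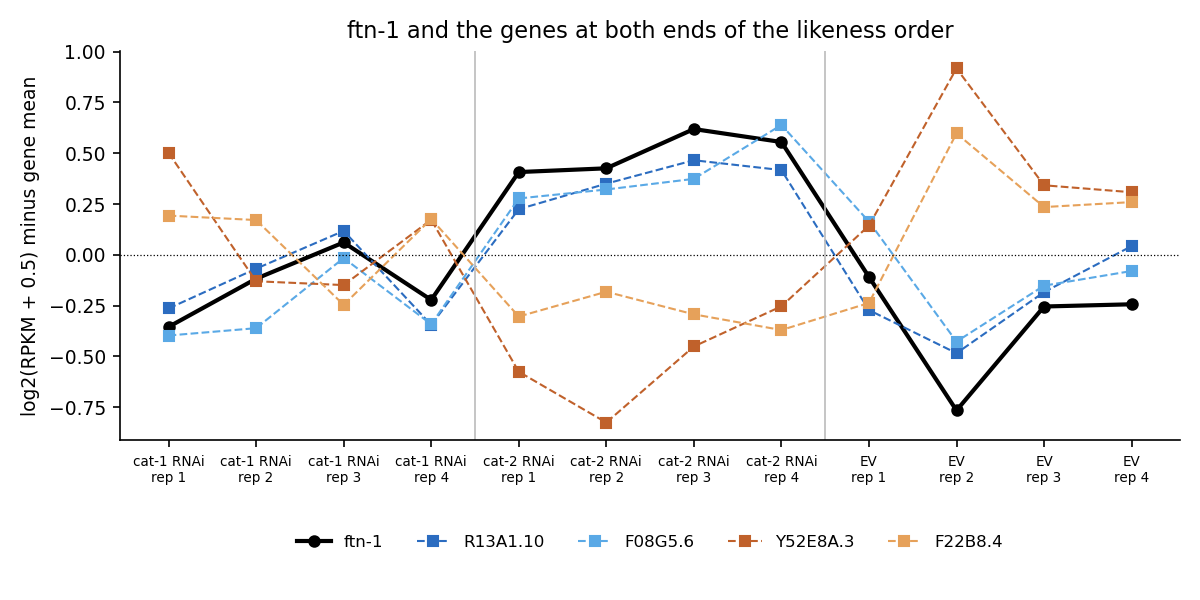
Log2(RPKM + 0.5) minus the mean of each gene (vertical axis) in the 12 libraries (horizontal axis, by label and replicate) for *ftn-1* (black), 2 of the genes most like it (blue) and 2 of the genes least like it (orange). *ftn-1*, *R13A1.10* and *F08G5.6* are above their means in all 4 *cat-2* RNAi-labelled libraries, and EV replicate 2 has the lowest *ftn-1* and the highest *Y52E8A.3*. The genes other than *ftn-1* were picked by their r with it over these libraries, so this is a description.

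The other genes had likenesses of similar size to genes with no shared name or family. For *ftn-2* the highest r was with *C53C11.2* (0.887), followed by *ger-1*, the choline kinase gene *ckb-2*, *R06A10.5* and the collagen gene *col-39*. For *smf-1* it was with *EEED8.2* (0.956), then the chromodomain gene *cec-1*, *C40A11.10*, *Y45F10A.7* and *Y47D3A.1*. For *smf-3* it was with *ZK973.8* (0.892), then the sorting nexin gene *snx-6*, *phy-3*, *abf-6* and *M04B2.2*. For *aco-1* it was with *T14G11.1* (0.894), then *acer-1*, *aptf-4*, *scav-1* and *Y45G5AM.7*.

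The wider iron pathway, together with zinc and copper transporters, was taken from 6 lists of 80 names, of which 67 different genes were tested. In each of the 3 comparisons 0 of these 67 passed a limma adjusted p of 0.05. Of all tested genes 0%, 0.0304% and 0% did so for *cat-1* RNAi against EV, *cat-2* RNAi against EV and *cat-1* RNAi against *cat-2* RNAi, so a count of 0 is no different from the background. The list of exporters and mitochondrial importers had 3 tested genes and a median log2 difference of -0.01 for the *cat-2* RNAi-labelled libraries against EV, where the median of all tested genes was 0.01. The ferroportin-like gene *fpn-1.2* averaged 1.76 ± 0.341 RPKM in the *cat-2* RNAi-labelled libraries and 2.41 ± 0.20 RPKM in EV (SD, n = 4 each; limma unadjusted p = 0.0134, adjusted p = 0.494). Its paralogue *fpn-1.1* averaged 7.87 RPKM in the *cat-2* RNAi-labelled libraries and 7.94 RPKM in EV. The mitoferrin gene *mfn-1* had a log2 difference of 0.05 in this comparison.

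The heme transport list, which holds importers, the exporter gene *mrp-5* and the secreted carrier gene *hrg-3*, had 7 tested genes with a median of 0.07 for the *cat-2* RNAi-labelled libraries against EV and -0.0044 for the *cat-1* RNAi-labelled libraries. The heme importer gene *hrg-4* averaged 2.92 ± 0.696 RPKM in the *cat-1* RNAi-labelled libraries, 2.89 ± 0.785 RPKM in the *cat-2* RNAi-labelled libraries and 4.09 ± 0.586 RPKM in EV (SD, n = 4 each). It was lower at a limma unadjusted p under 0.05 in both comparisons with EV, which share the same EV libraries. The limma adjusted p was 0.819 for the *cat-1* RNAi-labelled libraries and 0.528 for the *cat-2* RNAi-labelled libraries. Of the 7 genes, 2 (*hrg-4* and *hrg-1*) were lower at an unadjusted p under 0.05 for the *cat-1* RNAi-labelled libraries. For the *cat-2* RNAi-labelled libraries 1 was lower, and 0 were higher in either comparison. Of all tested genes 2.49% and 3.95% were lower at that unadjusted p in these comparisons, and 3.45% and 4.89% were higher. *hrg-1*, which moves heme out of intestinal vesicles, was at -0.43 for the *cat-1* RNAi-labelled libraries (limma unadjusted p = 0.0163, adjusted p = 0.819). It was at -0.32 for the *cat-2* RNAi-labelled libraries (limma adjusted p = 0.583). *hrg-6* was at 0.29 and *R186.1* (*hrg-9*) at 0.24 for the *cat-2* RNAi-labelled libraries, both at about 1 RPKM or less.

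Iron-sulfur cluster assembly had 8 tested genes and a median of -0.05 for the *cat-2* RNAi-labelled libraries against EV. The mitochondrial glutaredoxin gene *glrx-5* averaged 64.1 ± 9.58 RPKM in the *cat-2* RNAi-labelled libraries and 75.4 ± 3.92 RPKM in EV (SD, n = 4 each), lower at an unadjusted p of 0.0136 with a limma adjusted p of 0.494. *abtm-1*, the mitochondrial ABC transporter gene, was at -0.16 in both comparisons with EV, which share the same EV libraries. The mitochondrial aconitase gene *aco-2* averaged 238.5 RPKM in the *cat-2* RNAi-labelled libraries and 248.2 RPKM in EV. The scaffold gene *iscu-1* (*Y45F10D.4*) was at 0.08 for the *cat-2* RNAi-labelled libraries.

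The regulators of *ftn-1* and *smf-3*, together with the HIF-1 pathway, gave 14 tested genes with a median of -0.01 for the *cat-2* RNAi-labelled libraries against EV. *elt-2*, the intestinal activator of *ftn-1*, averaged 3.18 ± 0.607 RPKM in the *cat-2* RNAi-labelled libraries and 2.76 ± 0.127 RPKM in EV (SD, n = 4 each), a log2 difference of 0.16 (limma adjusted p = 0.740). *elt-7*, a second intestinal GATA factor gene, was at -0.17 and *rhy-1*, a negative regulator of HIF-1, also at -0.17 in this comparison. *daf-2*, the insulin receptor gene, averaged 37.5 ± 1.88 RPKM in the *cat-2* RNAi-labelled libraries and 33.3 ± 0.754 RPKM in EV (SD, n = 4 each), at an unadjusted p of 0.0194 and a limma adjusted p of 0.509. It was at 0.16 for the *cat-1* RNAi-labelled libraries as well, with the same EV libraries as reference. *cysl-1*, which links hydrogen sulfide to HIF-1, was at -0.28 for the *cat-1* RNAi-labelled libraries (limma unadjusted p = 0.0364, adjusted p = 0.819) and at -0.02 for the *cat-2* RNAi-labelled libraries.

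Zinc and copper transporters gave 18 tested genes with a median of 0.0033 for the *cat-2* RNAi-labelled libraries against EV. 1 of them, the zinc exporter gene *ttm-1*, was lower at a limma unadjusted p under 0.05 and 0 were higher. Of all tested genes 3.95% were lower and 4.89% higher, so a count of 1 among 18 is close to the background. *ttm-1* had 15.4 ± 1.13 RPKM in the *cat-2* RNAi-labelled libraries and 17.7 ± 0.761 RPKM in EV (SD, n = 4 each; limma adjusted p = 0.489). The ZIP-type transporter genes *zipt-1* (*F31C3.4*), *zipt-15* (*Y55F3BL.2*) and *zipt-2.2* (*F30B5.7*) were at -0.09, 0.08 and 0.30 in the same comparison, and *hmt-1*, a heavy metal transporter gene, was at -0.06 for the *cat-1* RNAi-labelled libraries.

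The list of enzymes that hold iron gave 18 tested genes with a median of 0.0074 for the *cat-2* RNAi-labelled libraries against EV. At an unadjusted p under 0.05 it had 2 higher and 2 lower genes in this comparison, where 4.89% and 3.95% of all tested genes were higher and lower. 1 of the higher genes was *cat-2* itself, whose reads under its own label are described above, and the other was the catalase gene *ctl-3*, with 49.0 ± 3.08 RPKM in the *cat-2* RNAi-labelled libraries and 44.7 ± 2.31 RPKM in EV (SD, n = 4 each; limma adjusted p = 0.519). The lower ones were the Rieske iron-sulfur subunit gene *isp-1*, at -0.11 (limma adjusted p = 0.509), and the cytochrome c1 gene *cyc-1*, at -0.07 (limma adjusted p = 0.564). The desaturase gene *fat-7* was at -0.25 and the prolyl hydroxylase gene *dpy-18* at 0.19 for the *cat-1* RNAi-labelled libraries.

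**Figure D5:**
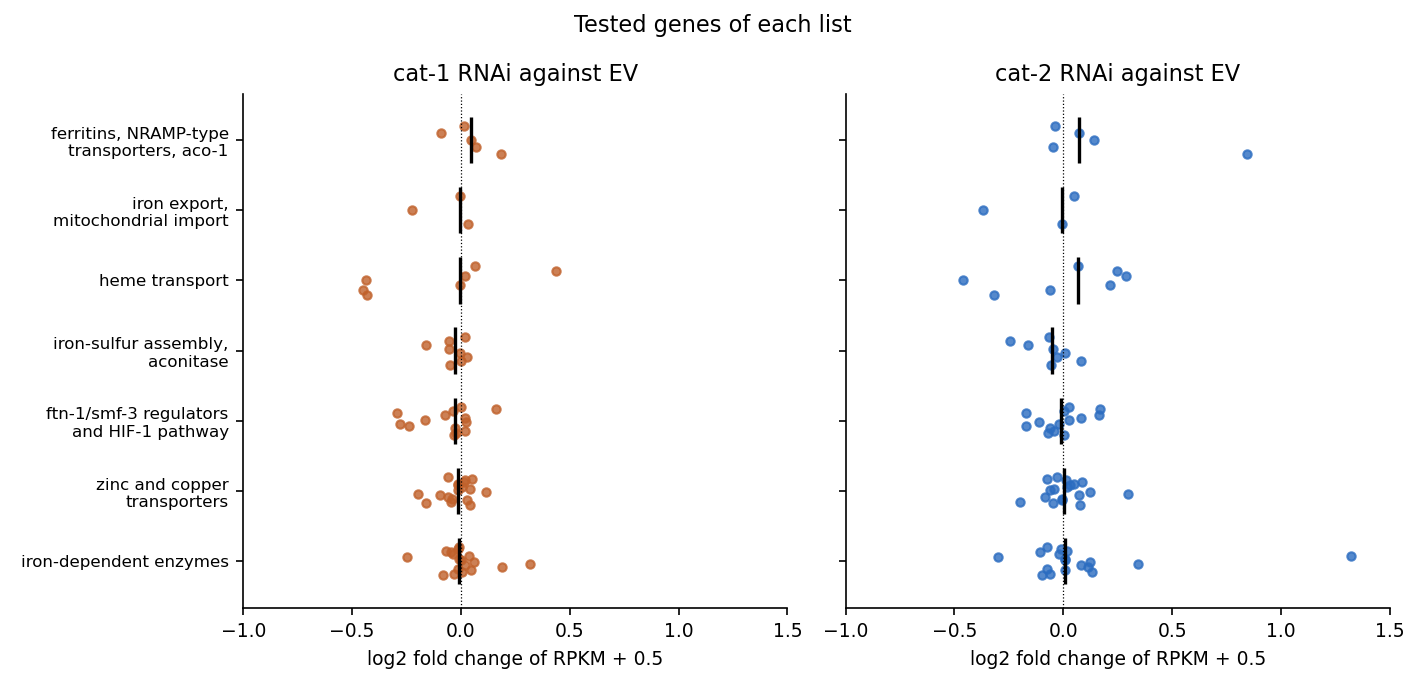
Log2 fold change of RPKM + 0.5 (horizontal axis) of every tested gene (points) in the 5 tested ferritin, transporter and aconitase genes and in the 6 lists (rows), with the median of each row as a black line; left, *cat-1* RNAi against EV; right, *cat-2* RNAi against EV. All medians of the 6 lists lie between -0.05 and 0.07, and in the right panel *ftn-1* at 0.85 and the RNAi target *cat-2* at 1.32 lie apart from the other points.

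The summed levels of markers of the intestine, where *ftn-1* is mainly expressed, overlapped between the groups. The 10 intestinal markers, none of them at 0 in every library of a group, summed to 279.0 to 307.8 RPKM in the *cat-2* RNAi-labelled libraries, 300.7 to 320.9 RPKM in the *cat-1* RNAi-labelled libraries and 287.9 to 323.6 RPKM in EV. Most of the sum, which averaged 306.5 RPKM in EV, came from *act-5* and *erm-1*. These averaged 114.9 and 116.6 RPKM in EV, and 102.2 and 117.7 RPKM in the *cat-2* RNAi-labelled libraries. Against EV 4 of the 10 were lower in the *cat-2* RNAi-labelled libraries at an unadjusted p under 0.05, namely *ifb-2*, *act-5*, *pept-1* and *pho-1*, and 0 were higher, where 3.95% of all tested genes were lower and 4.89% higher. The median of the 10 was -0.14 and the smallest limma adjusted p 0.380, with *elt-2* at 0.16, *ges-1* at 0.03, *nhx-2* at 0.02 and *erm-1* at 0.0099 on the other side of EV. Of 6 hypodermal markers 4 were tested, and the 6 summed to 109.0 to 142.4 RPKM in the *cat-2* RNAi-labelled libraries, 150.3 to 157.3 RPKM in the *cat-1* RNAi-labelled libraries and 153.8 to 160.6 RPKM in EV. Most of this sum was the adult cuticle collagen gene *col-19*, which averaged 118.5, 139.4 and 145.5 RPKM in these groups, in the same order. *col-19* and *dpy-13* were lower in the *cat-2* RNAi-labelled libraries than in EV at an unadjusted p under 0.05 (limma adjusted p of 0.461 and 0.556). The other tested hypodermal markers lay above EV, *dpy-7* at 0.60 and *sqt-3* at 0.40, and the median of the 4 was 0.05. *dpy-13* averaged 0.186 RPKM in the *cat-2* RNAi-labelled libraries and 0.625 RPKM in EV, and *dpy-7* 0.952 and 0.434 RPKM. Both are near the 0.5 RPKM limit of the test. The part of these shifts in the *ftn-1* difference was not tested. Sums of 8 neuronal markers were 277.6 to 318.4 RPKM in the *cat-2* RNAi-labelled libraries and 271.6 to 293.3 RPKM in EV. Their log2 differences ran from 0.03 to 0.52 with a median of 0.13. At an unadjusted p under 0.05, 1 of the 8 was higher and 0 were lower (smallest limma adjusted p 0.509). Sums of 8 germline markers were 2723 to 2922 RPKM in the *cat-2* RNAi-labelled libraries and 2779 to 2877 RPKM in EV. Of these 8, 1 was higher and 0 were lower at an unadjusted p under 0.05 (smallest limma adjusted p 0.519). The 6 body wall muscle markers summed to 329.8 to 348.7 RPKM in the *cat-2* RNAi-labelled libraries, 324.9 to 343.6 RPKM in the *cat-1* RNAi-labelled libraries and 303.3 to 539.2 RPKM in EV. The highest EV sum thus lay far above every RNAi-labelled library, and the reason was not tested. The 8 dopaminergic markers, both RNAi targets included, summed to 35.8 to 52.1 RPKM in the *cat-2* RNAi-labelled libraries and 30.9 to 41.3 RPKM in EV.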

How the data were processed

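The authors sequenced poly(A) RNA of whole worms as paired-end reads, mapped them with CLC software to build ce11 and deposited 1 table of RPKM for 46739 features in 12 libraries. For strand and multiple mapping, the setting is not given in the sources used here. Group means, fold changes and p-values of the authors' comparisons in the table were not used. RPKM depends on the feature length the authors used and on mapped reads, with no further scaling. Whole reads were recovered within 0.0001 reads for 100% of the 20423 features above 0. The labels call the replicates biological, 4 a group.

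limma 3.58.1 (R 4.3.3) was run on log2(RPKM + 0.5), with trend and robust estimation, for the 13161 genes that reached 0.5 RPKM in 4 or more libraries, all 12 libraries in 1 model, and Benjamini-Hochberg adjustment within each comparison. The pseudocount lessens fold changes of low genes. The test was also run on simulated reads with the same spread setting for every gene. Spread differs between genes in these data, so that run does not bear on the call of any single gene. Python 3.11.15, numpy 2.4.6 and pandas 2.3.3 did the rest. Positions are from Ensembl release 115; no sequences are shown.

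The members and lists were chosen with earlier results of these data known. Of 80 list names, 58 were found by name, 13 by synonym and 9 not at all. Named genes are the 6 members; from each list, up to 4 genes with the smallest p for *cat-2* RNAi against EV and up to 2 for *cat-1* RNAi against EV; the 5 genes most like each member; the 5 least like *ftn-1*; and the nearest neighbours. Marker genes were named after their values were seen. Libraries with the same replicate number had correlations of their deviations from -0.0578 to 0.185, over 0.1 in 1 of 12 pairs, and were not paired. Alternatives were other scalings, pseudocounts, filters and variance settings, library weights, voom on recovered reads, 2 groups in the model, a replicate block and each library left out.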

Additional observations from a re-analysis of the deposited data

Results flagged for a closer look

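*smf-3* in EV replicate 4 was at 1.353 RPKM, while the other 3 EV libraries lay between 0.836 and 0.905 RPKM, so this library was far from the rest of its group. It came from 50 reads, against 30 to 32 reads in the others. Of 18 groups of 4 libraries checked for such a gap, 1 had it, and chance flags about 1 in 20 groups.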

How the results depend on the processing

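The log2 difference of *ftn-1* between the *cat-2* RNAi-labelled libraries and EV was positive in all 23 alternatives, at 0.70 to 0.92, but its limma adjusted p, 0.0142 to 0.201, was under 0.05 in 8 of them. The number of the 6 genes past that threshold, 1 as reported, was 0 with median-ratio scaling, quantile normalization, a pseudocount of 0.1 or no filter. It was also 0 with trend and robust estimation both dropped, a replicate block or 2 groups in the model, and 0 to 1 with 1 library left out. It was 1 in 4 of the 12 fits with 1 library left out. These values chose the gene, so they are no test of it. The count over all genes, 4 as reported, was 2 with median-ratio scaling and with quantile normalization, 1 with a pseudocount of 0.1 and 0 with no filter. It was 0 with trend and robust estimation both dropped, 9 with library weights and 0 with the replicate block. It was 1 with 2 groups in the model, and 0 to 8 with 1 library left out. Under the replicate block *ftn-1* had an adjusted p of 0.0890. The lists, at 0, had 1 call (*cat-2* itself) with library weights and 0 to 1 with 1 library left out. For *cat-1* RNAi against EV the count of genes was 0 to 1 with 1 library left out (*igdb-1*, without replicate 3 of the *cat-1* RNAi-labelled libraries). For *cat-1* RNAi against *cat-2* RNAi it was 1 with library weights, 1 with voom (*F44G3.2* both times) and 0 to 2 with 1 library left out. Signs near 0 turned for *cat-1* RNAi against EV: *aco-1* was at -0.0014 under quantile normalization and -0.0190 to 0.0399 with 1 library left out, *smf-1* at -0.0179 to 0.128 and *smf-3* at -0.137 to 0.02002. For *cat-2* RNAi against EV *smf-3* was at -0.0527 to 0.233 with 1 library left out. The causes were not tested. *smf-3* could not be tested with a filter at 1 RPKM. *smf-3* had 21 to 54 reads a library, and *smf-2*, with at most 2, was too shallow to compare.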
